A study of Homo sapiens with 27 samples.

Results

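The genes described here encode the guidance cues of the ephrin, semaphorin, netrin and Slit families and the receptors that read them. The rule that picks them uses symbols and no measured value, although the families were chosen with earlier results of these data known. It takes all Eph receptors and ephrins, class 3 to 7 semaphorins, plexins, neuropilins, Robo receptors, Slits, numbered netrins and UNC5 receptors in the deposited gene list. The rule found 70 of the 26485 listed genes, in 14 Eph receptors, 8 ephrins, 20 semaphorins, 9 plexins, 2 neuropilins, 7 Robo and Slit genes, 8 netrin and UNC5 genes and 2 antisense RNAs whose symbols begin with that of a semaphorin. After a filter on low counts, 57 of the 70 were tested and 13 were not.

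Guidance cues were first known from the growing axon, which is attracted or repelled by them, and epithelial cells use the same proteins at their contacts. Ephrins stay on the cell surface and meet Eph receptor tyrosine kinases on the neighbouring cell, and both sides can signal. Class 3 semaphorins are secreted and mostly act through a neuropilin that binds the ligand and a plexin that signals, whereas the class 4 to 6 semaphorins are membrane proteins that bind plexins directly. Netrins act through DCC, neogenin and UNC5 receptors, and Slits through Robo receptors. In the mammary gland these families are known for their part in branching, in the order of the cell layers and in the spread of carcinoma cells.

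RNA was sequenced from T47D, a luminal breast cancer cell line in long use, in which a truncated form of the transcription factor GATA3 was expressed beside the wild-type protein. The 4 lines carried the empty pHAGE lentiviral vector (control) or a 3xTy1-tagged GATA3 with a splice site deletion at X308 (Splice del), a frameshift at C321 (C321fs) or a frameshift at A333 (A333fs). All were selected with puromycin, all still had their wild-type GATA3, and each gave 3 libraries. Each mutant was 1 stable population, so a difference that a population had for another reason enters its comparisons. The study calls the libraries of a line biological replicates, but the sample labels do not say that they came from separate cultures, so p-values measure the spread between libraries, which may be technical. The growth medium of the labels has more serum than that of the methods and names collagen-coated plates, and the medium used is not settled.

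Each library held between 27872208 and 36788024 fragments counted on genes, and the chi-square per gene between libraries of 1 line ran from 2.17 to 28.4, above the value near 1 that a repeated library would give. The highest values were those of C321fs replicate 1. GATA3 stood at 1247 to 1340 CPM in control and at 962 to 1155 CPM in the mutant libraries, with fragments from the introduced coding sequence counted in it. Luminal markers were present, 10 of 10 in every line, with a summed level of 17307 to 20495 CPM in control libraries, 11367 to 12188 CPM in those of Splice del, 11906 to 12615 CPM for C321fs and 13085 to 14199 CPM for A333fs. Of these 10, 1 was called higher and 3 lower in Splice del, 2 lower in C321fs, and 1 higher and 2 lower in A333fs cells. Beside them, 6.21% of all tested genes were higher and 4.53% lower with Splice del, 4.63% and 2.26% with C321fs and 5.46% and 6.81% with A333fs. Of the 5 endothelial markers the summed level stayed at or below 0.383 CPM. The 5 leukocyte markers summed to 4.68 to 6.54 CPM over all libraries, and PTPRC among them was at or near 0. The 5 neuronal markers summed to 26.4 to 33.7 CPM over all libraries, with SNAP25 and STMN2 at or near 0. Basal or myoepithelial markers summed to 16.4 to 17.8 CPM in control libraries, 14.9 to 17.6 CPM in those of Splice del, 17.7 to 21.7 CPM in those of C321fs and 22.9 to 25.6 CPM in those of A333fs. Of the 5 tested, 2, KRT14 and ACTA2, were called higher in A333fs cells, 1 was called higher in C321fs cells and 0 were called in Splice del cells. The summed fibroblast markers were 53.2 to 65 CPM in control libraries, 45.0 to 50.7 CPM in those of Splice del, 40.9 to 49.7 CPM in those of C321fs and 29.7 to 33.5 CPM in those of A333fs, and the part of both lists in the results was not tested. In bulk RNA, fewer cells with a transcript and less transcript per cell cannot be told apart.

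A property of the libraries moved with the comparisons with control. Across the 14789 tested genes, which are not independent, the GC content of the exons and the log2 fold change had a Spearman's rank correlation of -0.51 with Splice del, -0.55 with C321fs and -0.67 with A333fs. The guidance genes are GC-rich, with a median of 59.0% against 49.6% for all tested genes, and over the 57 of them it was -0.26, -0.26 and -0.51. Each call below was therefore recomputed after a smooth trend over GC content and exon length had been taken out library by library. Values from that fit are given beside the results that they change, and the part of the trend in these results was not tested.

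Levels were set side by side between genes as FPKM, that is, counts scaled to library size (CPM) per kilobase of exon. By the mean of the 12 libraries, the most abundant ligands were SEMA3C at 62.2 and SEMA3F at 61.8 FPKM, both secreted class 3 semaphorins. Their order depended on the line, since the mean FPKM of SEMA3C was 45.3 for control, 70.0 with Splice del, 86.5 with C321fs and 46.9 with A333fs, and SEMA3F had 62.5, 71, 54.2 and 59.7 FPKM. The most abundant receptor was the plexin PLXNB2, known as a receptor of class 4 semaphorins, at 78.4 FPKM.

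Ephrin-A genes led their family, with EFNA3 at 37.3, EFNA1 at 25.4 and EFNA4 at 14.5 FPKM, and EPHB4 (20.3 FPKM) and EPHB3 (17.5 FPKM) led the Eph receptors in the mean of all lines. NTN1 stood at 13.2 and NTN4 at 12.5 FPKM over all libraries, ROBO1 at 6.71 FPKM and ROBO2 at 0.729 FPKM. The neuropilins were near the bottom of the scale, NRP1 at 0.0520 and NRP2 at 0.0381 FPKM. The 13 genes that failed the filter were EPHA3, EPHA5, EPHB1, SEMA5A, SEMA5B, PLXNA4, NTN5, UNC5C, UNC5D, ROBO4 and the whole of the Slit family, SLIT1, SLIT2 and SLIT3. SEMA5B had 0 counts in 12 of 12 libraries, where a count of 0 allows up to 0.0815 CPM in the deepest and 0.108 CPM in the shallowest library, with counting error alone considered. Both limits use the counted fragments of the library, without the scaling factors (TMM) that enter the other CPM values.

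**Figure D1:**
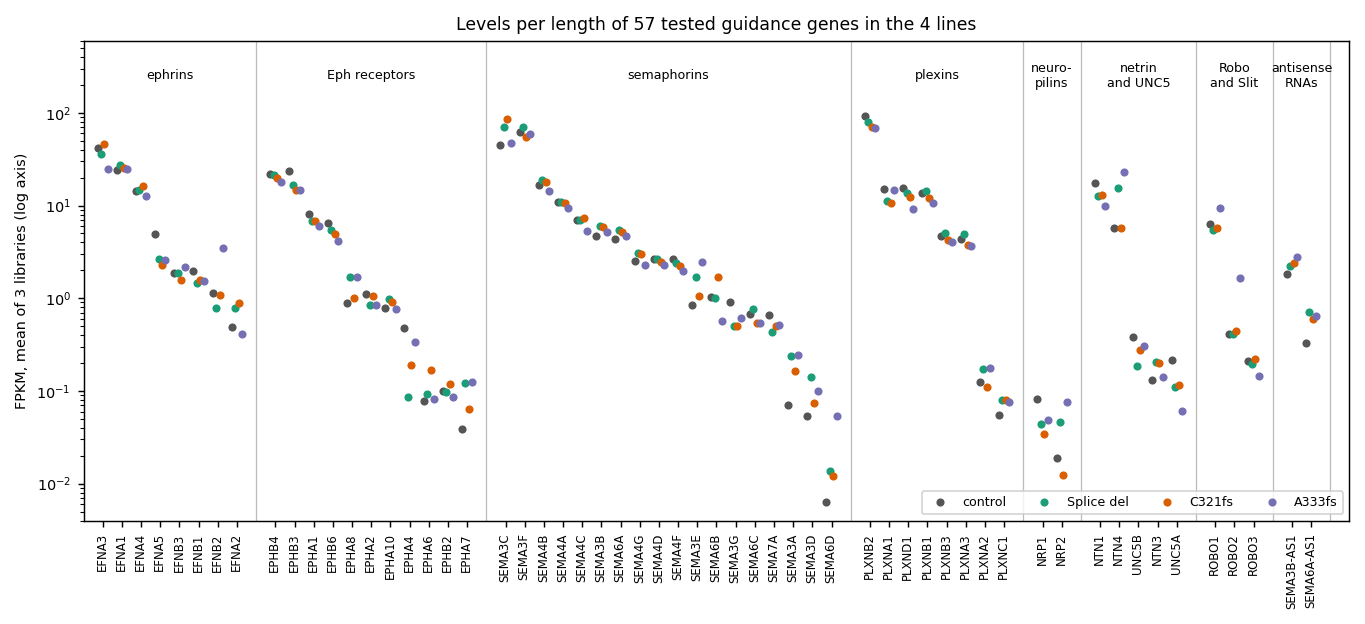
Mean FPKM of 3 libraries in each of the 4 lines (colours) for the 57 tested guidance genes, grouped by family and ordered by their mean, on a log axis. PLXNB2, SEMA3C and SEMA3F stand highest, at 78.4, 62.2 and 61.8 FPKM over the 12 libraries, and the neuropilins NRP1 and NRP2 lie at 0.0520 and 0.0381 FPKM.

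The first question was which guidance genes differed among the 4 lines. An F-test on 3 coefficients (edgeR's quasi-likelihood fit with Benjamini-Hochberg adjustment over all tested genes, adjusted p below 0.01) called 40 of the 57, beside 56.2% of all tested genes. Each mutant line was then compared with control, and a gene counted as called if it passed an adjusted p of 0.01 and changed more than 1.5-fold. In Splice del cells 7 guidance genes rose and 4 fell, where 6.21% of all tested genes were called higher and 4.53% lower. In C321fs cells 5 rose and 4 fell, beside backgrounds of 4.63% and 2.26%, and 9 of 57 stand beside 6.88% for either direction. In A333fs cells 9 rose and 8 fell, beside 5.46% and 6.81%. For either direction the background was 10.7% in Splice del and 12.3% in A333fs cells, where 11 and 17 of 57 members were called.

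In all, 24 of the 57 were called in at least 1 mutant line, beside 19.3% of all tested genes. Of these, 13 were called in 1 line, 9 in 2 lines and 2 in all 3 lines. SEMA3A was called higher in all 3, as were 1.6% of tested genes, and EFNA5 lower in all 3, as were 0.71%. SEMA6B was called in opposite directions, higher in C321fs and lower in A333fs cells, a pattern of 0.183% of tested genes. The 3 comparisons share their control libraries. The guidance genes had a median log2 fold change of 0.02 with Splice del, -0.04 with C321fs and -0.22 with A333fs, beside 0.03, 0.02 and 0.01 for all tested genes. Mutant and control libraries did not overlap, in either direction, in 62.9% of all tested genes with Splice del, 54.1% with C321fs and 65.5% with A333fs. Of the guidance genes, 64.9%, 54.4% and 63.2% did not overlap, so a lack of overlap with control was common. The share of all tested genes apart from control in all 3 lines was not counted.

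The split between directions in A333fs cells depended on the scaling. It was 9 higher and 8 lower in the fit with TMM factors, 12 and 6 with upper-quartile factors or with library size alone, and 11 and 3 in the fit free of the GC and length trend. Of all tested genes, 5.46% were higher and 6.81% lower with TMM factors, 8.99% and 3.21% with upper-quartile factors, 10.4% and 2.57% with library size alone, and 3.9% and 1.54% without the trend, so the split of all genes moved in the same direction. The fit without the trend gave the members a median of 0.09 in A333fs cells, beside -0.05 for all tested genes. Without TMM factors the median of all tested genes moved to 0.22 with Splice del, 0.19 with C321fs and 0.16 with A333fs.

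**Figure D2:**
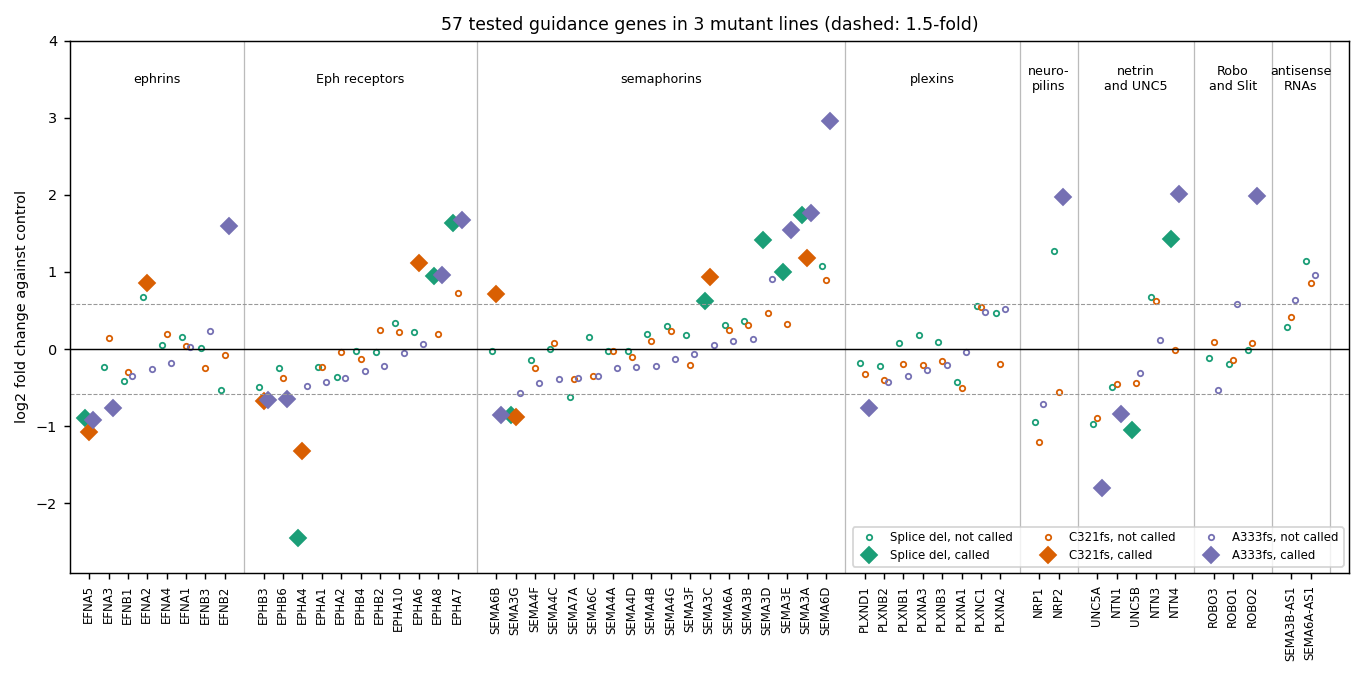
Log2 fold change against control of the 57 tested guidance genes in Splice del, C321fs and A333fs cells (colours), by family and ordered by the value in A333fs cells. Filled diamonds mark genes past the adjusted p of 0.01 and the limit of 1.5-fold (dashed lines), which number 11, 9 and 17 in the 3 lines, and SEMA6D, the highest point, had at most 3 counts in every control library.

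Among the ligands, 1 ephrin was lower in all 3 mutant lines and another was higher in A333fs cells. EFNA5 encodes ephrin-A5, a GPI-anchored ligand of EphA receptors (chromosome 5, 107376889 to 107670895). It was measured at 25.8, 26.4 and 26.3 CPM in control, 12.8, 14.8 and 14.5 CPM in Splice del, 12.8, 11 and 13.2 CPM in C321fs and 13.3, 13.9 and 14.4 CPM in A333fs libraries. Each of the 9 mutant libraries was lower than each of the 3 control libraries, and the Splice del libraries overlapped those of both other mutant lines. The log2 fold change against control was -0.90 (SE 0.08, adjusted p = 3.22e-07) with Splice del, -1.08 (SE 0.08, adjusted p = 1.88e-07) with C321fs and -0.92 (SE 0.08, adjusted p = 2.1e-07) with A333fs.

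EFNB2 encodes ephrin-B2, a transmembrane ligand of EphB receptors and EphA4 (chromosome 13, 106489731 to 106535040). Its level was 4.17, 4.68 and 6.15 CPM in control and 16, 14.4 and 15.0 CPM in A333fs libraries (log2 fold change 1.6, SE 0.15, adjusted p = 4.73e-07). In Splice del libraries it was 3.28, 3.75 and 3.34 CPM and in C321fs libraries 3.41, 5.55 and 5.25 CPM. Every A333fs library was thus above every other library, at 3.03-fold the control level, while Splice del libraries lay below the control libraries and C321fs libraries overlapped them. Between the mutants, EFNB2 was higher in A333fs than in Splice del cells by 2.13 (SE 0.15, adjusted p = 1.76e-07) and than in C321fs cells by 1.68 (SE 0.15, adjusted p = 4.78e-07) on the log2 scale.

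EFNA3 encodes ephrin-A3 (chromosome 1, 155078872 to 155087538) and had the highest mean FPKM of the ephrins in control, Splice del and C321fs cells. In A333fs cells its level did not differ from that of EFNA1 beyond the spread (24.8 against 25.0 FPKM). It stood at 71.9, 81.5 and 71.9 CPM in control, 62.1, 61.3 and 68.1 CPM in Splice del, 94.7, 78.7 and 75.5 CPM in C321fs and 46.6, 42.0 and 43.8 CPM in A333fs libraries. The A333fs libraries were the lowest, with a log2 fold change of -0.77 (SE 0.08, adjusted p = 2.14e-06) against control and -0.91 (SE 0.08, adjusted p = 7.6e-07) against C321fs. With the GC and length trend removed the difference from control was -0.43 and no longer reached 1.5-fold, while that from C321fs, -0.72, was still called.

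EFNA2, which encodes ephrin-A2, was low, at 1.02, 1.22 and 0.903 CPM in control, 1.55, 1.65 and 1.85 CPM in Splice del, 2.22, 1.94 and 1.52 CPM in C321fs and 1.07, 0.989 and 0.587 CPM in A333fs libraries. It was called higher in C321fs cells (log2 fold change 0.85, SE 0.22, adjusted p = 0.00412) and lower in A333fs than in C321fs cells (log2 fold change -1.12, SE 0.22, adjusted p = 0.00144) and Splice del cells (log2 fold change -0.93, SE 0.22, adjusted p = 0.00706). The C321fs call was lost without control replicate 1 or 3 or C321fs replicate 1 or 2, with adjusted p from 0.0153 to 0.0196 and log2 fold changes from 0.71 to 0.84. The difference of A333fs from Splice del was lost without any 1 Splice del library, C321fs replicate 2 or A333fs replicate 2 or 3 (adjusted p from 0.0106 to 0.0411). In fits of each pair of lines alone, the differences of A333fs from C321fs and from Splice del were both lost (adjusted p = 0.01165 and 0.01028). The other 4 ephrins, EFNA1, EFNA4, EFNB1 and EFNB3, were not called against control or between mutant lines. EFNA4, EFNA3 and EFNA1 lie in this order within 71.2 kb of chromosome 1. EFNA4 shares 180 exon bases with LOC100505666 on the opposite strand, and the counting did not use strand.

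Among the Eph receptors, EPHA4, a receptor of both ephrin-A and ephrin-B ligands (chromosome 2, 221418027 to 221574202), had the largest fall. It was measured at 3.73, 3.01 and 2.71 CPM in control, 0.568, 0.591 and 0.557 CPM in Splice del, 1.16, 1.25 and 1.36 CPM in C321fs and 2.36, 1.95 and 2.47 CPM in A333fs libraries. The groups were ordered control, A333fs, C321fs and Splice del, and none of the 4 overlapped. Against control EPHA4 changed by -2.45 (SE 0.19, adjusted p = 8.62e-08) in Splice del and -1.33 (SE 0.16, adjusted p = 1.62e-05) in C321fs cells on the log2 scale. In A333fs cells it was not called, and its level was higher than in Splice del by 1.97 (SE 0.19, adjusted p = 4.87e-06) and than in C321fs by 0.85 (SE 0.17, adjusted p = 0.0016). Splice del was below C321fs (log2 fold change -1.13, SE 0.22, adjusted p = 0.00234). That last call was lost without any 1 of the Splice del libraries (adjusted p from 0.0102 to 0.0135), and the difference of A333fs from C321fs without A333fs replicate 3 (log2 fold change 0.78, adjusted p = 0.0105).

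EPHA8, an ephrin-A receptor (chromosome 1, 22563511 to 22603594), moved the other way in Splice del and A333fs cells. It had 4.58, 4.30 and 5.42 CPM in control, 9.11, 8.19 and 10.2 CPM in Splice del, 5.69, 4.92 and 5.77 CPM in C321fs and 8.39, 10.4 and 9.01 CPM in A333fs libraries. All Splice del and A333fs libraries lay above all control and C321fs libraries, with log2 fold changes against control of 0.94 (SE 0.12, adjusted p = 1.1e-05) and 0.96 (SE 0.12, adjusted p = 7.29e-06). Its exons are GC-rich (63.2%), and with the trend removed the values rose to 1.12 and 1.37. EPHA8 was also higher in Splice del than in C321fs cells by 0.74 (SE 0.12, adjusted p = 0.000409) and in A333fs than in C321fs cells by 0.76 (SE 0.12, adjusted p = 0.000176).

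EPHA7, a further ephrin-A receptor, was also called higher in Splice del and A333fs cells against control, but not against C321fs. Its level was far lower, 0.174 to 0.475 CPM in control, 0.774 to 1.12 CPM in Splice del, 0.259 to 0.670 CPM in C321fs and 0.839 to 0.989 CPM in A333fs libraries. Its log2 fold changes were 1.63 (SE 0.36, adjusted p = 0.0013) and 1.67 (SE 0.36, adjusted p = 0.000924), and the first was lost without control replicate 2 (1.47, adjusted p = 0.01003). EPHA6 was measured at 0.441, 0.353 and 0.278 CPM in control and 0.700, 0.798 and 0.842 CPM in C321fs libraries (log2 fold change 1.11, SE 0.26, adjusted p = 0.00255). In Splice del libraries it was 0.361, 0.384 and 0.522 CPM and in A333fs libraries 0.387, 0.351 and 0.382 CPM, lower than in C321fs (log2 fold change -1.05, SE 0.26, adjusted p = 0.0063). Neither call was firm: the rise in C321fs was lost without control replicate 2 or 3 or C321fs replicate 3 (adjusted p from 0.0112 to 0.0126), and the difference from A333fs without any 1 of the 6 libraries compared (up to 0.0314). With DESeq2 both were lost (adjusted p = 0.0191 and 0.042). The difference from A333fs was also lost without a filter, in the fit of that pair alone and with the replicate number as a block (adjusted p = 0.0187, 0.0158 and 0.0121).

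Of the abundant Eph receptors, EPHB3 (chromosome 3, 184561799 to 184582408) stood at 93.9, 107 and 96.5 CPM in control, 69.1, 67.8 and 74.8 CPM in Splice del, 64.1, 58.0 and 64.7 CPM in C321fs and 62.2, 60.4 and 65.9 CPM in A333fs libraries. All 9 mutant libraries were below control, with calls in C321fs, -0.67 (SE 0.07, adjusted p = 3e-06), and A333fs cells, -0.66 (SE 0.07, adjusted p = 1.18e-06). With the trend removed both changes kept their sign but lost the call, at -0.47 and -0.26. Both calls were also lost with library size alone, at -0.50 and -0.51, and that in A333fs cells with upper-quartile factors, at -0.55. EPHB6, whose kinase domain is inactive, was called lower in A333fs cells (log2 fold change -0.65, SE 0.07, adjusted p = 1.57e-06) and had -0.27 with the trend removed. The EPHB6 call was also lost with upper-quartile factors (-0.54), with library size alone (-0.50) and without control replicate 2 (-0.58, adjusted p = 1.24e-05). Its FPKM is understated because the annotation lists its exons a second time on an alternate sequence, leaving 50% of the listed length on chromosome 7.

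EPHB4, the receptor of ephrin-B2, had the highest mean FPKM of the Eph receptors in the 3 mutant lines, while EPHB3 exceeded it in control (23.5 against 21.8 FPKM). It had 89.8, 102 and 92.7 CPM in control, 92.1, 90.7 and 97.0 CPM in Splice del, 89.8, 82.7 and 87.2 CPM in C321fs and 78.4, 76.5 and 79.1 CPM in A333fs libraries. The A333fs libraries lay below all others by a small margin (log2 fold change -0.28, SE 0.06, adjusted p = 0.000612 against control), short of 1.5-fold, and with the trend removed the sign turned, to 0.12 (adjusted p = 0.0134). EPHA1, EPHA2, EPHA10 and EPHB2 were not called in any of the 6 comparisons.

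**Figure D3:**
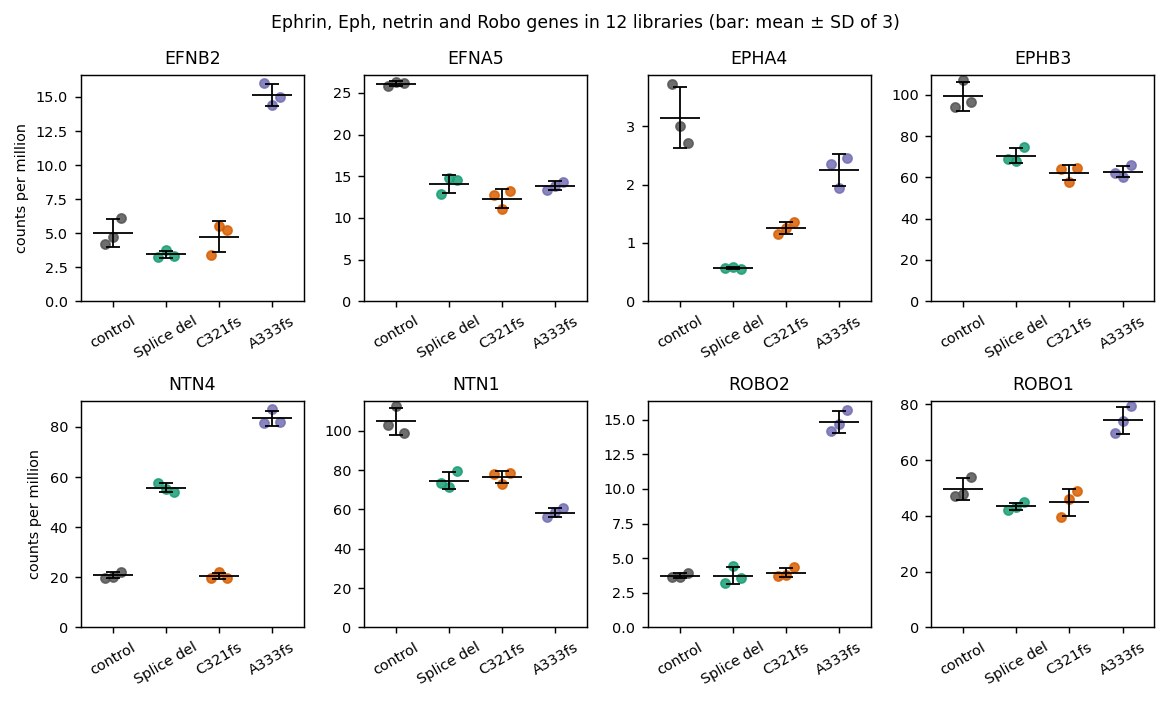
CPM in each of the 12 libraries (points, 3 per line) with the mean and SD for 4 ephrin and Eph genes, NTN4, NTN1, ROBO2 and ROBO1, on linear axes that start at 0. EFNB2, ROBO2 and ROBO1 stand apart in A333fs, NTN4 in Splice del and A333fs, EFNA5 is lower in all 9 mutant libraries, and EPHA4 is lowest in Splice del at 0.557 to 0.591 CPM.

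The netrins moved in opposite directions. NTN4 encodes netrin-4, a secreted netrin related to laminin beta chains and found in basement membranes (chromosome 12, 95657807 to 95790758). It was measured at 19.8, 20.3 and 22.1 CPM in control, 57.6, 55.2 and 54.2 CPM in Splice del, 19.8, 22.1 and 19.9 CPM in C321fs and 81.5, 87.0 and 81.8 CPM in A333fs libraries. C321fs libraries overlapped control, and Splice del libraries stood at 2.68-fold and A333fs libraries at 4.02-fold its level, without overlap between these lines. The log2 fold changes were 1.42 (SE 0.06, adjusted p = 2.2e-10) and 2.01 (SE 0.06, adjusted p = 2.91e-12). Against C321fs they were 1.43 (SE 0.06, adjusted p = 3.48e-10) for Splice del and 2.02 (SE 0.06, adjusted p = 3.7e-12) for A333fs cells. Of the 57 tested genes, NTN4 had the smallest adjusted p for any difference among the lines (9.69e-13).

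NTN1 encodes netrin-1, the ligand of DCC and UNC5 receptors (chromosome 17, 9021542 to 9244000). Its level was 103, 112 and 99.1 CPM in control, 73.6, 71.2 and 79.3 CPM in Splice del, 78.3, 73.0 and 78.4 CPM in C321fs and 56.1, 58.6 and 60.5 CPM in A333fs libraries. All mutant libraries were below control and A333fs libraries were below all others. The call was in A333fs cells (log2 fold change -0.84, SE 0.06, adjusted p = 5.07e-08), and the log2 fold changes in Splice del and C321fs cells, -0.49 and -0.45, had adjusted p of 1.13e-05 and 3.86e-05 without reaching 1.5-fold. With the trend removed the change in A333fs cells was -0.45, not called. By mean FPKM, NTN1 exceeded NTN4 in control (17.6 against 5.74) and C321fs cells (12.9 against 5.70), and NTN4 exceeded NTN1 in Splice del (15.4 against 12.6) and A333fs cells (23.1 against 9.81).

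The netrin receptors were low. UNC5B was called lower in Splice del cells, at 2.27 to 2.92 CPM in control and 1.01 to 1.78 CPM in Splice del libraries (log2 fold change -1.05, SE 0.20, adjusted p = 0.000481). UNC5A was called lower in A333fs cells, at 0.660 to 1.03 CPM in control and 0.191 to 0.294 CPM in A333fs libraries (log2 fold change -1.80, SE 0.35, adjusted p = 0.000359). Its Splice del libraries, at 0.284 to 0.522 CPM, and C321fs libraries, at 0.292 to 0.548 CPM, also lay below control, without a call. UNC5C and UNC5D were under the filter, as was the netrin receptor DCC, which belongs to the list of partners and had a mean of 0.0229 CPM in control. Neogenin, encoded by NEO1, was present at a mean of 27.7 CPM in control and 28.1, 25.4 and 28.1 CPM in Splice del, C321fs and A333fs cells, and was not called. NTN3, at 0.194 to 0.502 CPM, was not called.

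Both tested Robo receptors on chromosome 3 were highest in A333fs cells. ROBO2 (chromosome 3, 77040143 to 77649963) had 3.66, 3.62 and 3.96 CPM in control, 3.23, 4.43 and 3.55 CPM in Splice del, 3.74, 3.81 and 4.34 CPM in C321fs and 14.2, 14.7 and 15.7 CPM in A333fs libraries. The first 3 lines overlapped, and all A333fs libraries were above them, at 3.97-fold the control level (log2 fold change 1.99, SE 0.11, adjusted p = 1.85e-09). Against C321fs and Splice del the log2 fold changes were 1.91 (SE 0.11, adjusted p = 2.87e-09) and 2.00 (SE 0.11, adjusted p = 9.42e-09).

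ROBO1 (chromosome 3, 78597238 to 79767909), the more abundant receptor, had 47.0, 47.7 and 54.0 CPM in control, 42.2, 43.1 and 44.9 CPM in Splice del, 39.5, 46.1 and 49.1 CPM in C321fs and 69.6, 74.0 and 79.3 CPM in A333fs libraries. Its A333fs libraries also stood above all others. Against control the change of 0.58 (SE 0.08, adjusted p = 1.53e-05) lay just under the limit of 1.5-fold, and against C321fs, 0.73 (SE 0.08, adjusted p = 4.92e-06), and Splice del, 0.78 (SE 0.08, adjusted p = 6.5e-06), it was called. ROBO2 and ROBO1 lie next to each other in an interval of 2727.8 kb in which no other listed gene was tested. ROBO3, at 0.558 to 1.28 CPM, was not called, and SLIT1, SLIT2 and SLIT3, the ligands, were under the filter, with SLIT3 the highest at 0.255 to 0.264 CPM in A333fs libraries.

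Semaphorins were the largest family, with 18 of 20 tested. Splice del cells had 4 of the 18 higher and 1 lower, beside 6.21% and 4.53% of all tested genes. C321fs cells had 3 higher and 1 lower, beside 4.63% and 2.26%, and A333fs cells 3 and 1, beside 5.46% and 6.81%. Most rises were in 4 secreted class 3 genes that lie on the minus strand of chromosome 7, in the order SEMA3C, SEMA3E, SEMA3A and SEMA3D, within 4379.4 kb (80742538 to 85121931). All 4 were called higher in Splice del cells. That interval holds 10 listed genes, of which 2 other genes were tested, CACNA2D1 and PCLO. Neither was called in Splice del or C321fs cells, and CACNA2D1 was called higher in A333fs cells (log2 fold change 1.00, adjusted p = 0.000612). The exons of the 4 semaphorin genes have a GC content of 34.9% to 39.4%, far below the median of the guidance genes.

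The windows before the start sites of SEMA3C and SEMA3E are shown as examples of genes called higher in Splice del cells with a window that holds a GATA motif. SEMA3D and EPHA7 were also called higher in Splice del cells and have a window with a match, at -189 and -61, and these are not printed. SEMA3C was also called higher in C321fs cells, and SEMA3E in A333fs cells. The windows of NTN4 and EFNA5 are shown because these genes moved most clearly in the netrin and ephrin families and their windows hold none. The 6-base words searched on both strands were AGATAA or AGATAG and TGATAA or TGATAG, the letters that GATA factors are known to prefer. In ChIP-seq of the tagged mutants, the study reported enrichment of a partial motif, AGAT, that differs from this consensus. The partial motif was not searched here. Capitals mark the match, all 4 windows lie on the minus strand of GRCh38.p14, and the sequences are those of RefSeq. They cover chr7:80922390-80922639, chr7:83649164-83649389, chr12:95790765-95791014 and chr5:107670938-107671187. Of the SEMA3E window, 24 bases next to the start are left out because the deposited annotation has them in an exon. The SEMA3C window belongs to the start site farthest upstream, outside the gene as the deposited annotation draws it. A window of SEMA3C nearer the gene had 0 matches and one of SEMA3E farther downstream had 2, and neither is printed.
SEMA3C: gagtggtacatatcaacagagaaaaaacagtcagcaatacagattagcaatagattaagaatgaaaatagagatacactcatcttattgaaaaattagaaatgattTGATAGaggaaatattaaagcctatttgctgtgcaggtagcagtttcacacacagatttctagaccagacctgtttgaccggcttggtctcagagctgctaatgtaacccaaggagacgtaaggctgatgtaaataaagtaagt
SEMA3E: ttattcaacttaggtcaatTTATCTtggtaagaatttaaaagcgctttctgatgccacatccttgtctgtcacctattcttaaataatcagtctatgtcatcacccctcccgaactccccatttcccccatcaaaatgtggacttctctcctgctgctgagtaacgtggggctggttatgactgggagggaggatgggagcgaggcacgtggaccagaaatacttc
NTN4: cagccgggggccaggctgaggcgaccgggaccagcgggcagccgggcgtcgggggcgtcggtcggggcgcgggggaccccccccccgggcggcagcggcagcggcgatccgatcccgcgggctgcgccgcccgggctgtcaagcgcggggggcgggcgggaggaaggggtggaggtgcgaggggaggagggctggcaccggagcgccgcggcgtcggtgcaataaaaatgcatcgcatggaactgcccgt
EFNA5: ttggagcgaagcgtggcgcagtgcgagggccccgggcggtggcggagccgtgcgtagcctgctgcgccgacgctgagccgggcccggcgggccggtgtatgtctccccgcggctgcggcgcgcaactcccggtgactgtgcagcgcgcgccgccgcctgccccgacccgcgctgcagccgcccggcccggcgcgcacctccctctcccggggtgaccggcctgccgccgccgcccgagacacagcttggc
Counted from the start, the match begins at position -144 in SEMA3C and, as the reverse complement, at -231 in SEMA3E. Over all 35116 promoters of the RefSeq table, 22.3% of windows of 250 bases held a match, and over the 92 windows of guidance genes 14.1% did. By gene, 12 of the 60 guidance genes with a promoter had one in any window, or 20%, beside 1906 of 10620 tested genes with a promoter, or 17.9%. The 2 sets are not alike, since the 60 include members that failed the filter. Among the 12, EPHA3, ROBO4 and SEMA5B were not tested. Of the 20 members with a promoter that were called in a mutant line, 6 had one. These were SEMA3C, SEMA3E, SEMA3D and EPHA7, called higher in Splice del cells, and EFNA3 and EPHB6, called lower in A333fs cells. A match is a description of these letters and not a measured site.

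SEMA3C, the most abundant of the 4, had 222, 237 and 245 CPM in control, 376, 367 and 344 CPM in Splice del, 399, 458 and 486 CPM in C321fs and 222, 272 and 234 CPM in A333fs libraries. Splice del and C321fs libraries stood above all others without overlapping each other, and A333fs libraries overlapped control. The log2 fold change was 0.63 (SE 0.08, adjusted p = 1.15e-05) in Splice del and 0.93 (SE 0.08, adjusted p = 8.5e-07) in C321fs cells, and A333fs cells were below C321fs (log2 fold change -0.88, SE 0.08, adjusted p = 7.24e-07). With the trend removed the rise in Splice del was 0.31, not called, that in C321fs 0.62, still called, and the value in A333fs against control -0.27 (adjusted p = 2.71e-05), under 1.5-fold.

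SEMA3E, which encodes a semaphorin that binds plexin-D1 without a neuropilin, followed another order of lines. It had 5.12, 6.09 and 5.90 CPM in control, 12.0, 11.4 and 10.7 CPM in Splice del, 6.82, 6.94 and 7.78 CPM in C321fs and 16.3, 17.9 and 15.8 CPM in A333fs libraries. The groups did not overlap, with A333fs highest, then Splice del, C321fs and control. The log2 fold changes were 1.00 (SE 0.09, adjusted p = 7.34e-07) in Splice del and 1.54 (SE 0.09, adjusted p = 4.3e-09) in A333fs cells. Both lines were also above C321fs, by 0.67 (SE 0.09, adjusted p = 0.0001) and 1.22 (SE 0.09, adjusted p = 6.14e-08).

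SEMA3A and SEMA3D were far lower. SEMA3A had 0.543, 0.385 and 0.278 CPM in control, 1.34, 1.33 and 1.39 CPM in Splice del, 0.883, 1.04 and 0.842 CPM in C321fs and 1.45, 1.37 and 1.32 CPM in A333fs libraries. All 9 mutant libraries were above all 3 control libraries, with log2 fold changes of 1.74 (SE 0.23, adjusted p = 1.45e-05), 1.18 (SE 0.25, adjusted p = 0.00106) and 1.77 (SE 0.23, adjusted p = 1.01e-05). With the trend removed the value in C321fs cells was 0.82 with an adjusted p of 0.0239, which ended that call. SEMA3D had 0.271, 0.385 and 0.347 CPM in control and 1.01, 0.975 and 0.697 CPM in Splice del libraries (log2 fold change 1.42, SE 0.35, adjusted p = 0.00275). In C321fs libraries SEMA3D had 0.365, 0.347 and 0.680 CPM and in A333fs libraries 0.355, 0.670 and 0.851 CPM, without a call in these lines. Its call in Splice del cells was lost with the trend removed (1.02, adjusted p = 0.0144) and without control replicate 1 or Splice del replicate 1 or 2 (adjusted p from 0.0115 to 0.0151).

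**Figure D4:**
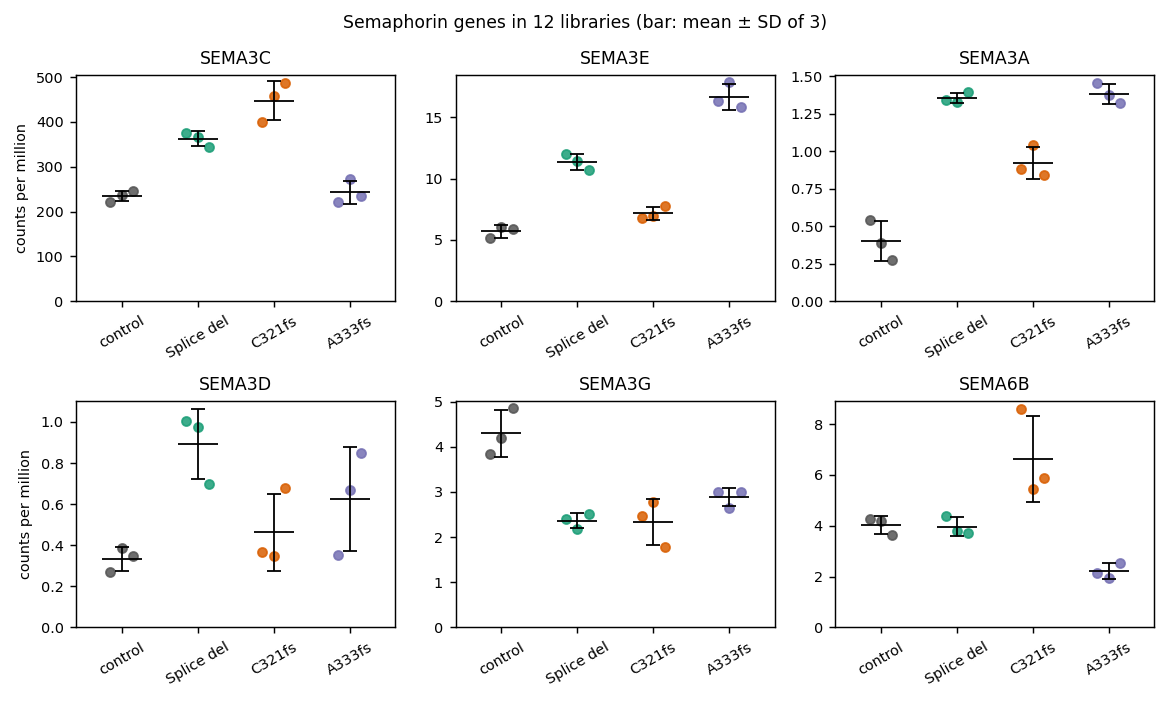
CPM in each of the 12 libraries (points, 3 per line) with the mean and SD for the 4 class 3 semaphorin genes of chromosome 7, SEMA3G and SEMA6B, on linear axes that start at 0. SEMA3C is highest in C321fs at 399.0 to 486 CPM and SEMA3E in A333fs at 15.8 to 17.9 CPM, and C321fs replicate 1 is the high SEMA6B point at 8.58 CPM.

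The class 3 genes on chromosome 3 were called otherwise. SEMA3G (chromosome 3, 52433252 to 52445027) was called lower in Splice del and C321fs cells. It had 3.83, 4.20 and 4.86 CPM in control and 2.40, 2.19 and 2.51 CPM in Splice del libraries. C321fs libraries had 2.47, 2.77 and 1.78 CPM and A333fs libraries 3.001, 2.648 and 2.994 CPM. All 9 mutant libraries were thus below control, without a call in A333fs cells. The log2 fold changes in Splice del and C321fs cells were -0.86 (SE 0.15, adjusted p = 0.000171) and -0.88 (SE 0.15, adjusted p = 0.00024). SEMA3B stood at 14.4 to 17.7 CPM in control, 18.2 to 22.5 CPM in Splice del, 17.8 to 21.6 CPM in C321fs and 16.4 to 18.2 CPM in A333fs libraries, and SEMA3F at 209 to 234, 244 to 260.0, 182 to 202 and 202 to 215 CPM. Neither was called, though the Splice del libraries of both, and the C321fs libraries of SEMA3B, lay above control. Without the trend SEMA3B was 0.56, 0.50 and 0.59 in the 3 mutant lines, the last past 1.5-fold (adjusted p = 1.52e-06).

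SEMA6B, a transmembrane semaphorin that binds plexin-A proteins (chromosome 19, 4542588 to 4559759), was called in opposite directions. It had 4.27, 4.20 and 3.65 CPM in control, 4.39, 3.78 and 3.73 CPM in Splice del, 8.58, 5.44 and 5.86 CPM in C321fs and 2.16, 1.95 and 2.55 CPM in A333fs libraries. C321fs libraries lay above and A333fs libraries below control, with log2 fold changes of 0.72 (SE 0.16, adjusted p = 0.00154) and -0.86 (SE 0.18, adjusted p = 0.00078). The rise rested on C321fs replicate 1: without it the log2 fold change was 0.48 (adjusted p = 0.0052), under 1.5-fold. The GC content of its exons is 67.9%, and with the trend removed the fall was -0.34 (adjusted p = 0.105), not called. The difference of A333fs from C321fs, -1.58 (SE 0.17, adjusted p = 4.57e-06), was called in each of these fits. Those of Splice del from C321fs, -0.74 (SE 0.16, adjusted p = 0.0047), and of A333fs from Splice del, -0.84 (SE 0.18, adjusted p = 0.00363), were lost without Splice del replicate 1 (adjusted p = 0.0101 and 0.0227). The first was also lost without Splice del replicate 2 or 3 or C321fs replicate 1 (up to 0.0264) and in the fit of that pair of lines alone (0.016). The last was also lost without A333fs replicate 1 or 2.

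SEMA6D was called higher in A333fs cells (adjusted p = 0.00143) from very few fragments. They numbered 0, 3 and 1 in the control libraries, 6, 2 and 2 in those of Splice del, 4, 0 and 4 in those of C321fs and 11, 12 and 13 in those of A333fs. Its control libraries had at most 3 counts, so no fold is given. The other tested semaphorins were not called in any comparison: SEMA4A, SEMA4B, SEMA4C, SEMA4D, SEMA4F, SEMA4G, SEMA6A, SEMA6C and SEMA7A. SEMA4G shares 738 exon bases with MRPL43 on the opposite strand, or 16.8% of its exons. The antisense RNA SEMA6A-AS1 shares 294 bases with SEMA6A, so their fragments cannot be told apart there. SEMA6A-AS1 (0.237 to 0.451 CPM in control and 0.440 to 0.955 CPM in mutant libraries) and SEMA3B-AS1 (0.577 to 0.660 and 0.591 to 0.998 CPM) were not called.

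Of the 10 tested plexins and neuropilins, PLXND1 and NRP2 were called against control. PLXNB2, the most abundant, (chromosome 22, 50274979 to 50307572) had 552, 624 and 598 CPM in control, 494, 491 and 543 CPM in Splice del, 449, 423 and 466 CPM in C321fs and 429, 430.1 and 462 CPM in A333fs libraries. All mutant libraries were below control, with log2 fold changes of -0.22 (SE 0.06, adjusted p = 0.00747), -0.41 (SE 0.06, adjusted p = 8.57e-05) and -0.43 (SE 0.06, adjusted p = 2.81e-05), under 1.5-fold in each line. Without the trend the values were -0.05, -0.18 and -0.02.

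PLXND1, the receptor of SEMA3E (chromosome 3, 129555213 to 129606739), was the plexin called against control. It had 105.1, 112.8 and 109.4 CPM in control, 94.3, 94.9 and 98.5 CPM in Splice del, 88.2, 84.3 and 88.2 CPM in C321fs and 63.5, 60.9 and 68.9 CPM in A333fs libraries, with A333fs below all other lines (log2 fold change -0.76, SE 0.06, adjusted p = 4.88e-08). Without the trend the change was -0.35, not called. PLXNA2 had 1.42, 1.41 and 1.42 CPM in control, 1.63, 1.98 and 2.33 CPM in Splice del, 1.00, 1.39 and 1.36 CPM in C321fs and 1.97, 1.91 and 2.23 CPM in A333fs libraries. It was called between A333fs and C321fs cells (log2 fold change 0.71, SE 0.18, adjusted p = 0.00751), a call near the threshold that was lost in 9 of the 12 fits without 1 library, among them all 3 without a control library, with adjusted p up to 0.0375 without C321fs replicate 1. The call was also lost in the fit of that pair of lines alone (adjusted p = 0.0219) and with DESeq2 (adjusted p = 0.0123). PLXNA1, PLXNA3, PLXNB1, PLXNB3 and PLXNC1 were not called.

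Of the neuropilins, NRP1 had 0.543, 0.545 and 0.347 CPM in control, 0.155, 0.236 and 0.383 CPM in Splice del, 0.213, 0.208 and 0.194 CPM in C321fs and 0.323, 0.191 and 0.352 CPM in A333fs libraries and was not called. NRP2 (chromosome 2, 205682500 to 205798133) had 0.204, 0.160 and 0.0694 CPM in control, 0.361, 0.384 and 0.313 CPM in Splice del, 0.0609, 0 and 0.227 CPM in C321fs and 0.613, 0.574 and 0.558 CPM in A333fs libraries. The A333fs libraries were above all others, by 1.97 (SE 0.47, adjusted p = 0.002) against control and 2.53 (SE 0.51, adjusted p = 0.00165) against C321fs on the log2 scale. The first call was lost without control replicate 3 (1.66, adjusted p = 0.0127), and the other in the fit of that pair of lines alone (2.53, adjusted p = 0.0127). Its counts were low, at most 19 in any library.

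Since a call in 1 line and not in another does not show a difference between them, the mutant lines were compared directly. Between Splice del and C321fs cells 5 guidance genes were called, beside 2.64% of all tested genes. In Splice del EPHA8, SEMA3E and NTN4 were higher, beside 1.76% of tested genes, and EPHA4 and SEMA6B lower, beside 0.879%. A333fs and C321fs cells differed in 14 members, beside 5.55% of tested genes. EPHA4, EPHA8, EFNB2, SEMA3E, PLXNA2, NRP2, NTN4, ROBO1 and ROBO2 were the 9 higher in A333fs (2.47% of tested genes), and EPHA6, EFNA2, EFNA3, SEMA3C and SEMA6B the 5 lower (3.08%). A333fs and Splice del cells differed in 6, beside 3% of tested genes, with EPHA4, EFNB2, ROBO1 and ROBO2 higher in A333fs (1.03% of tested genes) and EFNA2 and SEMA6B lower (1.97%). Libraries did not overlap in 42.1% of the guidance genes between Splice del and C321fs, beside 29.7% of all tested genes. Between A333fs and C321fs it was 61.4% beside 40.6%, and between A333fs and Splice del 68.4% beside 46.3%.

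NTN4 and SEMA3E, called higher in both Splice del and A333fs cells, were higher in A333fs than in Splice del cells by 0.58 and 0.55 on the log2 scale (adjusted p = 7.46e-06 and 0.000315), both under 1.5-fold. Over the 57 members, the rank correlation with GC content was -0.52 for A333fs against C321fs and -0.56 for A333fs against Splice del. With the trend removed, SEMA6B between A333fs and Splice del was the 1 call between mutant lines that was lost (-0.52, adjusted p = 0.0196). Against control that fit also gave calls which the fit with TMM factors alone did not: SEMA3B (0.59) and PLXNA2 (0.67) higher and EPHA4 (-0.65) lower in A333fs cells, and EFNA2 (0.85) higher and EFNB2 (-0.72) lower in Splice del cells. Between mutant lines it added EFNB3 (0.63) and PLXNA1 (0.59), higher in A333fs than in C321fs, and PLXNA1 (0.60) and UNC5B (0.92), higher in A333fs than in Splice del.

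**Figure D5:**
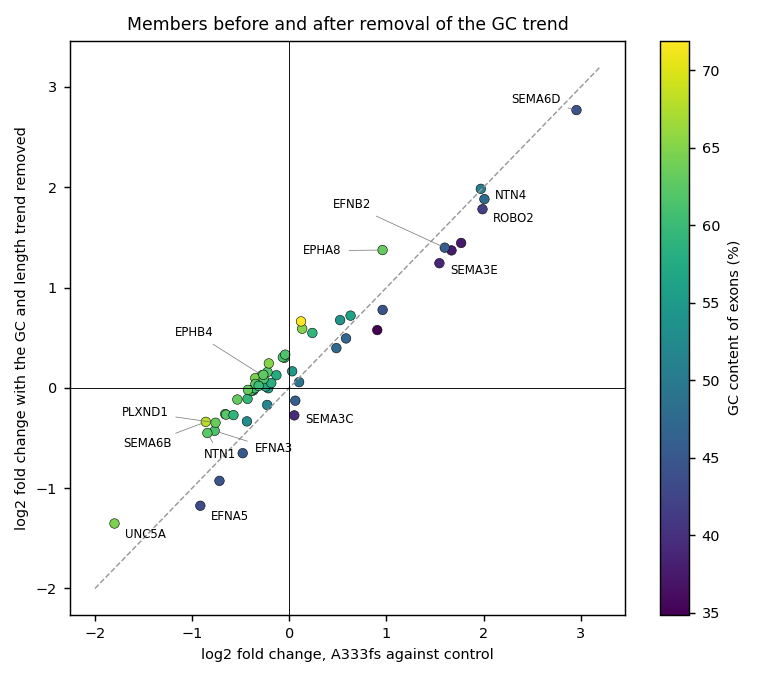
Log2 fold change of the 57 tested guidance genes in A333fs cells against control (x axis) and the same with the trend over GC content and exon length removed (y axis), coloured by GC content, with the line of equality dashed. NTN4, ROBO2, EFNB2, SEMA3E and EFNA5 stay at 1.88, 1.78, 1.40, 1.24 and -1.18, the GC-rich genes EPHA8 and SEMA6B lie above the line, and EPHB4 crosses 0.

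The genes that carry these signals inside the cell were counted in lists written from general knowledge. For comparison, 6.21% of all tested genes were higher and 4.53% lower with Splice del, against 4.63% and 2.26% with C321fs and 5.46% and 6.81% with A333fs. Of the Eph and ephrin partners, 25 of 26 listed genes were tested, of which 3 rose in Splice del, 2 rose in C321fs, and 2 rose and 1 fell in A333fs cells. CHN2, which encodes a chimaerin that inactivates Rac, rose in all 3 lines (log2 fold change 2.13, SE 0.18, in Splice del, 1.40, SE 0.20, in C321fs and 1.37, SE 0.20, in A333fs). The lipid phosphatase gene INPPL1 fell in A333fs cells (-0.63, SE 0.06). Of the semaphorin and plexin partners, 19 of 25 were tested, with 2 higher and 1 lower in Splice del cells, 0 called in C321fs cells and 1 higher and 1 lower in A333fs cells. FYN, a Src family kinase, rose in Splice del (1.51, SE 0.16) and A333fs cells (1.12, SE 0.16), where the small GTPase gene RRAS fell (-0.66, SE 0.10, and -0.69, SE 0.10).

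Of the Slit and Robo partners, 17 of 18 were tested, with 3 higher in Splice del cells, 1 higher and 1 lower in C321fs cells and 2 higher and 1 lower in A333fs cells. CXCR4, the chemokine receptor that Slit signalling is known to oppose, rose from a mean of 0.507 CPM in control to 6.37, 2.61 and 4.05 CPM in Splice del, C321fs and A333fs cells. SRGAP3, which encodes a GTPase-activating protein bound by Robo receptors, was higher in Splice del (0.70, SE 0.06) and lower in C321fs cells (-0.73, SE 0.06). Of the netrin and repulsive guidance molecule pathway, 13 of 22 listed genes were tested, with 1 higher and 1 lower in each line. TRIM9, an E3 ligase that binds DCC, rose in Splice del (1.80, SE 0.10) and A333fs cells (2.26, SE 0.10), and the actin-binding gene ABLIM3 fell in all 3 lines (-0.81, SE 0.12, in Splice del, -0.98, SE 0.13, in C321fs and -0.64, SE 0.12, in A333fs).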

How the data were processed

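RNA-seq of 12 T47D libraries, 3 in each of 4 lines, was analysed. ChIP-seq of these lines was not analysed here. The values are deposited counts of fragments per gene, not normalized, which the authors made by trimming with Trimmomatic, aligning to hg38 and counting properly paired fragments with featureCounts 1.6.4. Counting ignored the strand and left out fragments that mapped to several places or overlapped several genes. The methods name no aligner, the file header names STAR and the submitters' processing notes HISAT2, so the aligner is not settled. The deposited exon length per gene (unit: bases) was used for FPKM.

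Counts were filtered with filterByExpr by line (14789 of 26485 genes), scaled with TMM factors and fitted with edgeR 4.0.16 in R 4.3.3 (glmQLFit, glmQLFTest), with 1 fit of all 12 libraries and no covariates. P-values were adjusted by Benjamini-Hochberg over all tested genes, and SE is the log2 fold change divided by the root of F. Where every library of a line held 3 counts or fewer, no fold is given. CPM used the TMM-scaled library size. The fit was tested on simulated counts with 200 changed genes.

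Members and lists were chosen with earlier results of these data known. Values in every library are given for members called alike in all 3 lines, in opposite directions or between mutant lines, and for the most abundant and the most different member of each family. EPHB3, SEMA3D, SEMA3G and SEMA6D, the neighbours CACNA2D1 and PCLO, DCC and NEO1 were added after their values were seen. Of each partner list, up to 4 called genes could be named. Replicate numbers did not pair the libraries: residuals of libraries with the same number correlated by -0.0092 on average over 18 pairs, from -0.12 to 0.17. The alternatives were RLE, upper-quartile and no scaling factors, no filter, a mean of at least 10 counts, fits of each pair of lines, DESeq2 1.42.0, an adjusted p of 0.05, no fold change limit, a replicate block, a loess trend over GC content and exon length (span 0.3) fitted to genes outside the members and entered as offsets, and leaving out each library.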

Additional observations from a re-analysis of the deposited data

Results flagged for a closer look

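In 4 of the guidance genes, all 3 libraries of 1 mutant lay above control and all 3 of the other below it. The difference between the 2 mutant lines was itself called with edgeR's quasi-likelihood test. The share of all tested genes with this pattern was not counted, so it is not known how common the pattern is. SEMA6B was lower in A333fs than in C321fs cells (log2 fold change -1.58). EFNB2 was higher in A333fs than in Splice del cells by 2.13. PLXNA2 was higher in A333fs than in C321fs cells by 0.71, a call that was lost without any 1 control library, in the fit of that pair alone and with DESeq2. ROBO1 was higher in A333fs than in Splice del cells by 0.78.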

How the results depend on the processing

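Of 62 called gene and comparison pairs among the guidance genes, 62 kept direction and call with RLE factors, 60 with upper-quartile factors, 59 with library size alone, 61 without a filter, 59 of the 59 still tested at a mean of at least 10 counts, 56 in fits of each pair of lines, 58 of 61 with DESeq2 and 51 in the fit free of the GC and length trend. None of these turned direction in these fits. Low counts limit EPHA6, EPHA7, SEMA3A, SEMA3D, SEMA6D, UNC5A and the neuropilins.

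The replicate block kept 61 of the 62 calls, the exception being EPHA6 between A333fs and C321fs cells (adjusted p = 0.0121), and gave 37 genes that differed among the 4 lines in place of 40. The share of all tested genes that differed was 56.2% without the block and was not counted with it. With the block and the GC and length trend removed together, 50 calls were kept.

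Without a fold change limit, 11 genes were lower than control with Splice del, 11 with C321fs and 17 with A333fs, beside 22.4%, 20.7% and 26.4% of all tested genes, and 23 were called between A333fs and C321fs and 21 between A333fs and Splice del, beside 15.7% and 11.9%. At an adjusted p of 0.05, 7 were lower in Splice del cells (4.95% of all tested genes) and 8 were called between Splice del and C321fs (3.38%). With the trend removed, 3 were lower in A333fs cells, with or without the block (1.57% and 1.54% of all tested genes), and 3 were higher in C321fs cells with the block (3.1%). EPHB4 in A333fs cells against control turned to 0.12 with the trend removed, with and without the block, and PLXND1 in Splice del cells to 5e-04 with library size alone. Fits that left out 1 library gave 6 to 8 genes higher and 4 to 5 lower in Splice del, 3 to 5 higher and 4 to 4 lower in C321fs, and 9 to 10 higher and 8 to 9 lower in A333fs cells. Of all tested genes, those fits called in either direction 8.38% to 11.8% with Splice del, 4.97% to 8.62% with C321fs and 9.58% to 13.1% with A333fs. The same fits gave 3 to 6 members between Splice del and C321fs, 11 to 14 between A333fs and C321fs, 5 to 7 between A333fs and Splice del and 36 to 40 that differed among the lines. For these 4 counts the share of all tested genes was not counted without 1 library. With all 12 libraries it was 2.64%, 5.55%, 3% and 56.2%. The 3 higher in C321fs were found without control replicate 3 or C321fs replicate 1, and the 3 between Splice del and C321fs without any 1 Splice del library. The causes were not tested.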
